A study of Solanum lycopersicum and Arabidopsis thaliana and Cannabis sativa with 28 samples.

Results

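Broad H3K4me3 domains are the long stretches of hemp chromatin over which this mark was called as a single domain. In the domain table of hemp seedlings, a domain was taken as broad when it covered at least 5000 bp, which is 25 times the 200 bp step in which the table places domain borders, and when it held at least 4 H3K4me3 reads for each IgG read. These criteria chose 1093 of the 16331 listed domains (6.69%). Size and read ratio are therefore what chose the domains, and both are given as a description only. PHILO ChIP-seq, a low-input chromatin immunoprecipitation protocol for plants that is run in high throughput, was applied to whole 2-week-old seedlings of the hemp variety Otto II Boax that had received no treatment. The tested libraries were 3 immunoprecipitations with an antibody against H3K4me3 and the controls were 3 immunoprecipitations with unspecific IgG. The authors merged the libraries of each kind before calling domains, so that each domain has 1 H3K4me3 count and 1 IgG count, no value has a replicate error, and no comparison could be tested against the spread of replicates. Whole seedlings mix many cell types, and a domain that is long in all cells cannot be told apart from shorter domains that lie next to each other in different cells.

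Trimethylation of lysine 4 of histone H3 is placed by COMPASS-like methyltransferase complexes and is found near the start of transcribed genes in plants, where it usually covers the first nucleosomes downstream of the start site. In mammals, unusually long H3K4me3 domains are known for marking genes that define the identity of a cell type. IgG binds no defined chromatin feature, and its reads show how readily a region is recovered and aligned without the mark. Domain callers of the SICER family, to which epic2 belongs, join neighboring enriched windows across short gaps, and a long domain can therefore span a single long gene or several short ones. The annotation of the hemp assembly (cs10) was not used here, so that domains are given by position and not by gene, and seedling identity was not checked against marker genes. Positions follow the deposited table, in which every start is a multiple of 200 and is counted from 0.

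Broad domains had a median of 6000 bp (quartiles 5400 and 7000 bp, n = 1093), whereas other domains had a median of 2000 bp (quartiles 1200 and 2800 bp, n = 15238). Sizes of broad domains thinned out quickly above the minimum. At least 6000 bp was reached by 573 of them, at least 8000 bp by 168, at least 10000 bp by 49 and at least 14000 bp by 8. The size minimum was met by 1186 domains (7.26% of all listed), and 93 of these held fewer than 4 H3K4me3 reads per IgG read. Among all listed domains 91.6% reached this read ratio, and 92.2% of the long domains did, against 91.6% of the 15145 shorter ones. The size minimum thus did most of the choosing. All listed domains had an FDR of at most 0.05 over IgG, and the highest FDR of a broad domain was 2.5e-25.

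The longest domains lay mostly on a single chromosome. Of the 10 longest, 8 were on chromosome 2, and 7 of these fell in the last 20% of its listed span. The longest, chr2:94143200-94162799, measured 19600 bp and held 2428 H3K4me3 and 362 IgG reads, a ratio of 6.71 (95% interval 6.003 to 7.51, counting error only). It lay 800 bp from its nearest neighbor, which is the smallest distance between any listed domains. The second, chr2:88413600-88430599, measured 17000 bp and held 2247 H3K4me3 and 372 IgG reads. It also had a neighbor at 800 bp, so that both lay as close to the next domain as the table allows. The share of broad domains on chromosome 2 was 23.6% over all sizes, 34.5% from 8000 bp, 42.9% from 10000 bp and 87.5% from 14000 bp, where it stood for 7 of 8 domains. The exception was the third longest domain, chr4:90569400-90585999, which measured 16600 bp and held 4218 H3K4me3 reads, the most of any broad domain. Its IgG count of 563 was also the highest among broad domains and equals 33.9 reads per kb. At 20800 bp from it, chr4:90606800-90618799 measured 12000 bp and had 226 H3K4me3 and 58.25 IgG reads per kb, and fell just short of the ratio at 3.89. High IgG counts thus accompanied this pair of long domains, and their part in the size of the domains was not tested.

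Although broad domains held more reads in total, they were not more densely covered than shorter domains. The median H3K4me3 count was 974 reads in broad domains and 368 in other domains. Per kb, however, broad domains had a median of 152 H3K4me3 reads (quartiles 116 and 198), other domains 172.5 (quartiles 100 and 257) and shorter domains of the same read ratio 185.5. The quartile ranges overlapped widely. The median was lower in broad domains on 9 of 10 chromosomes, and was higher on chromosome 2, with 157 reads per kb in broad and 152.5 in other domains. Within chromosome 2 the last 10% of the listed span had 151 reads per kb in broad and 167 in other domains, and only the rest had the higher median in broad domains, with 161 against 149. Broad domains were more alike than other domains taken over all sizes. The coefficient of variation across domains was 37.5% for broad domains, 59.3% for other domains and 53.9% for shorter domains of the same read ratio. However, short domains with few reads also carry more counting error. Domains of 4200 to 4800 bp at the read ratio had quartiles of 120 and 206, so that the narrower spread was not particular to broad domains.

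Across size classes of domains at or above the read ratio, H3K4me3 density did not keep falling with size. Domains of up to 1000 bp had a median of 135 reads per kb, and those of 1200 to 2000 bp had the highest median, 219. The median was then 200 at 2200 to 3000 bp, 172.5 at 3200 to 4000 bp and 160 at 4200 to 4800 bp. Within the broad domains it stayed between 148 (5000 to 6000 bp) and 161 (over 10000 bp). In other words, the decline with size ran up to the first broad class, and the median was not lower in the longer classes. Across the 1093 broad domains, Spearman's rho between size and H3K4me3 reads per kb was 0.01, where both values share the length of the domain.

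**Figure D1:**
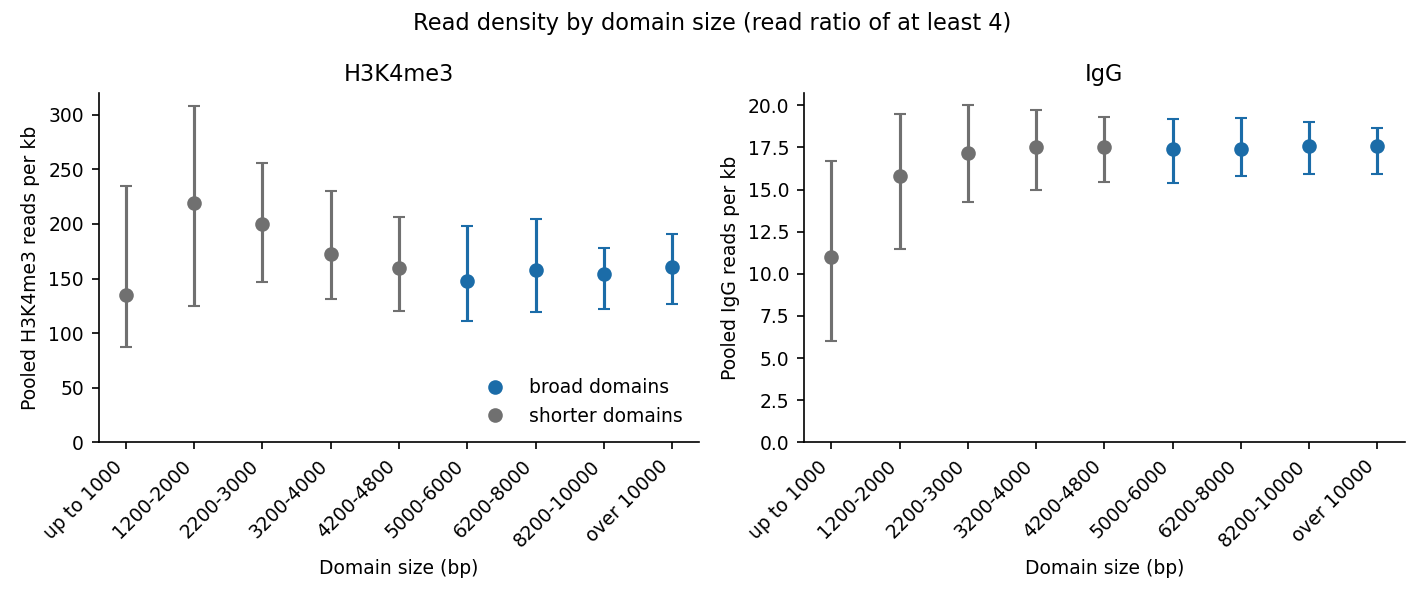
Median pooled reads per kb (points) with quartiles (bars) by domain size in bp for H3K4me3 (left) and IgG (right), for domains with a read ratio of at least 4, with broad domains in blue and shorter domains in gray. H3K4me3 peaks at 219 reads per kb in domains of 1200 to 2000 bp and lies between 148 and 161 in the 4 broad classes, while IgG levels off at about 17.5.

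IgG density was similar among most broad domains. The median over all broad domains was 17.4 IgG reads per kb (quartiles 15.7 and 19.2), compared to 16.25 (quartiles 12.3 and 19.5) in other domains. The coefficient of variation was 16.6% in broad and 41.5% in other domains. However, the median IgG count was 105 reads in broad and 31 in other domains, so that other domains carry more counting error. IgG is also part of the rule that chose broad domains. Domains of 4200 to 4800 bp at the read ratio had IgG quartiles of 15.5 and 19.3, so that the narrow range was not particular to broad domains. On 9 chromosomes the IgG median was higher in broad domains, and on chromosome 7 it was 17.0 in both. Shorter domains at the read ratio already had 17.5 at 3200 to 4000 bp and at 4200 to 4800 bp. Those of up to 1000 bp had 11, so that the higher median was not particular to broad domains. Across broad domains, the 95th percentile exceeded the 5th 3.44-fold for H3K4me3 reads per kb and 1.72-fold for IgG reads per kb, and rho between both densities was 0.19 (n = 1093, with counts that share the length of each domain). No broad domain held fewer than 38 IgG reads, so that none of them rests on a control count at or below the 3 reads that were taken as the floor. In contrast, 99 of the other domains held no IgG read.

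The read ratio of broad domains had a median of 8.84 (quartiles 6.71 and 11.3) and ran between 4.03 and 27.2, while the median was 11.6 in other domains. The highest ratio belonged to chr2:94546600-94551799, with 1957 H3K4me3 and 72 IgG reads (27.2, 95% interval 21.5 to 34.9). It was followed by chr2:84010600-84015799, with 2021 and 75 reads (26.9, 95% interval 21.4 to 34.4), and these intervals overlap. The densest broad domain, chr9:22049000-22055399, had 413 H3K4me3 reads per kb over 6400 bp, with 23.0 IgG reads per kb. The thinnest, chr1:49632800-49637799, had 43.2 H3K4me3 and 9.8 IgG reads per kb and just met the size minimum. Both densities were low there, and its ratio of 4.41 (95% interval 3.22 to 6.14) could not be told from the minimum of 4 at this depth. The domain nearest the minimum was chr2:79635000-79640199 at 4.03 (95% interval 3.26 to 5.01).

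Domains on either side of the limits are given as a description. Those with the last size excluded, 4800 bp, had a median of 148 H3K4me3 reads per kb (n = 149), and the smallest broad size, 5000 bp, had 153 (n = 142). The next size, 5200 bp, had 142 (n = 123). Long domains with a ratio of at least 4 and below 4.5 had 73.0 H3K4me3 reads per kb (n = 38), and those with a ratio of at least 3.5 and below 4 had 68.0 (n = 36), an order that follows from the ratio itself. The 93 long domains below the ratio formed a mixed set. Their median was 60.0 H3K4me3 and 17.9 IgG reads per kb, so that most had ordinary IgG and little H3K4me3. However, 9 of them had more than 30 IgG reads per kb, compared to 2 of the 1093 broad domains. As IgG is the denominator of the ratio that separates these sets, this contrast follows from the rule. The highest was chr10:51924000-51929399, with 164 H3K4me3 and 65.2 IgG reads per kb.

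**Figure D2:**
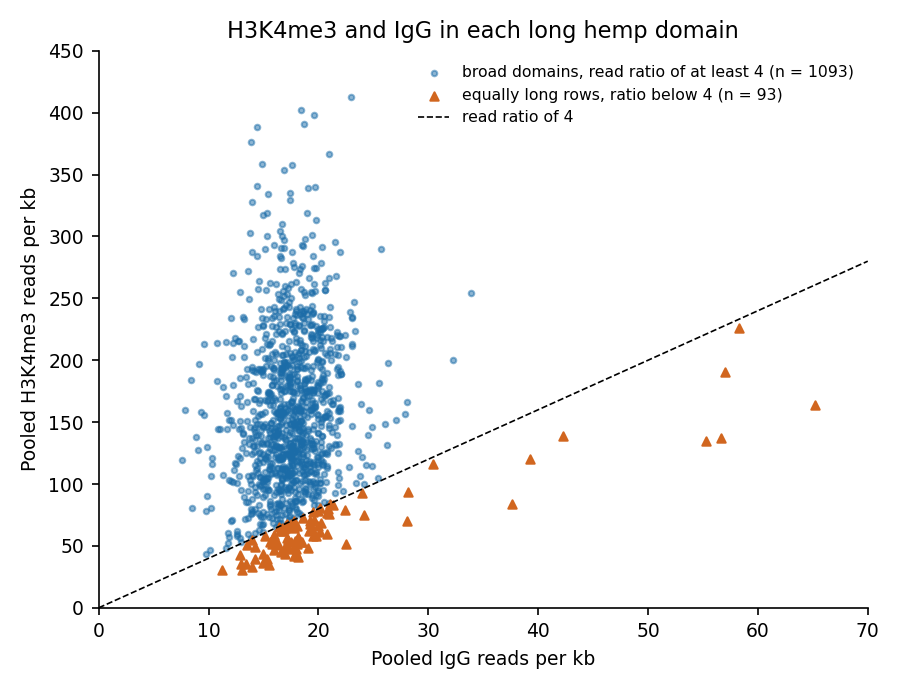
Pooled H3K4me3 reads per kb (vertical axis) against pooled IgG reads per kb (horizontal axis) for each of the 1093 broad domains (blue points) and the 93 equally long domains below the read ratio (orange triangles), where the dashed line marks a ratio of 4. Of the broad domains, 97.7% lie between 10 and 25 IgG reads per kb, while 9 of the triangles lie above 30, a split that the ratio itself favors.

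Broad domains took up more of the covered sequence than their number would give. They spanned 7.09 Mb, or 18.1% of the 39.1 Mb covered by listed domains. Within listed domains they held 1143162 of 7169433 H3K4me3 reads (15.9%, 95% exact binomial interval 15.9 to 16.0) and 123701 of 656405 IgG reads (18.8%, interval 18.8 to 18.9). Their share of H3K4me3 reads was thus below their share of length, and their share of IgG reads slightly above it. Pooled over all their length, broad domains had 161 H3K4me3 reads per kb and other domains 188. These totals are what the listed domains hold and not the depth of the libraries.

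Broad domains were unevenly distributed over the chromosomes. On chromosome 2, 258 of 2607 listed domains were broad (9.90%, 95% exact binomial interval 8.78 to 11.1). This was the highest share, followed by chromosome 10 with 166 of 1966 (8.44%, interval 7.25 to 9.76) and chromosome 4 with 157 of 2025 (7.75%, interval 6.63 to 9.005). The interval of each of these overlapped that of the next. Chromosome 9 had the lowest share, with 36 of 874 (4.12%, interval 2.90 to 5.66), and chromosome 1 had 98 of 2235 (4.38%, interval 3.57 to 5.32) although it is the longest listed span. Those of chromosomes 3, 5, 6, 7 and 8 lay between 4.81% and 6.55%. Chromosome 2 held 23.6% of broad and 15.4% of other domains. Measured per listed span, broad domains ranged between 0.586 per Mb on chromosome 9 and 2.70 per Mb on chromosome 2, with 2.57 per Mb on chromosome 10. The intervals cover counting of domains only, and neighboring domains are not independent of each other.

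**Figure D3:**
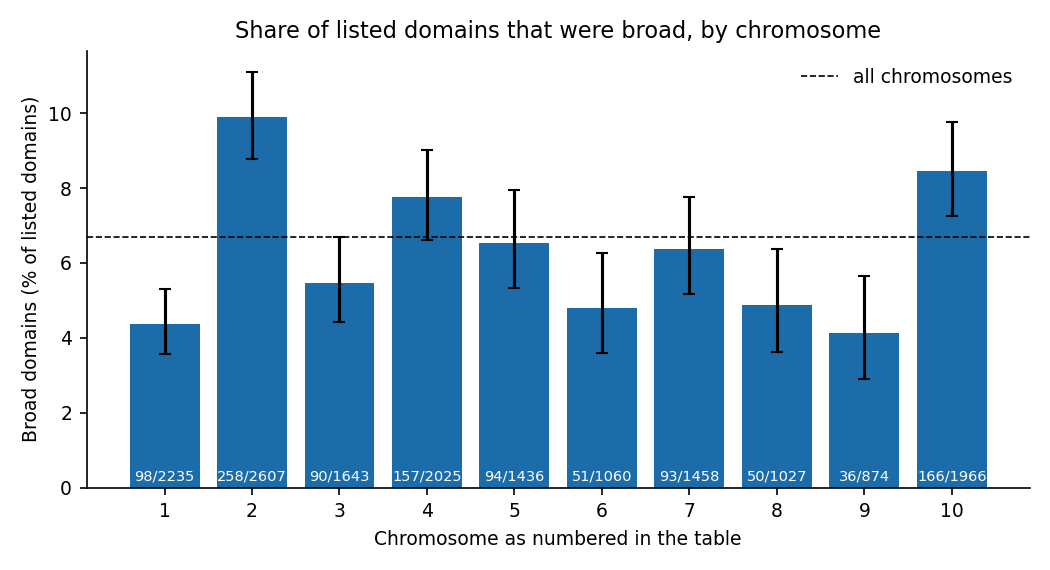
Percentage of listed domains that were broad on each of the 10 chromosomes (bars, with broad and all listed domains as numbers and 95% exact binomial intervals as error bars) and over all chromosomes (dashed line, 6.69%). Chromosome 2 (9.90%) and chromosome 10 (8.44%) lie above the line with their whole intervals, whereas chromosome 1 (4.38%) and chromosome 9 (4.12%) are the lowest.

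The broad domains of chromosome 2 were concentrated toward the end of its listed span with the higher positions. When each chromosome's listed span was divided into 10 equal sections, the last section of chromosome 2 (chr2:86155800-95724999) held 117 broad domains among 636 (18.4%, 95% interval 15.5 to 21.6). In the rest of this chromosome 141 of 1971 domains were broad (7.15%, interval 6.06 to 8.38), and on the other chromosomes 835 of 13724 were (6.08%, interval 5.69 to 6.50). Within that rest, the ninth section was also rich in broad domains, with 49 of 387 (12.7%). The sections before the ninth lay between 2.31% and 7.87%, around the share of the other chromosomes. The last section contained 45.3% of the broad and 22.1% of the other domains of chromosome 2. Domains that were not broad were also longer there, with a median of 2600 bp against 1600 bp in the rest of chromosome 2 and 2000 bp on the other chromosomes. The broad domains there had medians of 151 H3K4me3 and 17.5 IgG reads per kb, near the 151 and 17.4 of broad domains on the other chromosomes. Of the 21 broad domains of at least 10000 bp on chromosome 2, 15 were in its last section. Neighboring bins of 1 Mb within it were among those with the most broad domains, with 20 of 78 domains at 89 to 90 Mb, 18 of 88 at 90 to 91 Mb and 20 of 95 at 91 to 92 Mb. In the first of these, broad domains made up 46.5% of the covered length.

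Placement along the chromosome differed from chromosome to chromosome. The outer 10% at both ends of the listed spans held 43.3% of broad domains (95% interval 40.3 to 46.3) and 39.9% of other domains (39.1 to 40.7). Without chromosome 2 these shares were 40.1% and 41.0%, and the direction turned. On chromosome 2 alone they were 53.5% of broad and 33.5% of other domains. Across the 10 chromosomes, broad domains had the higher outer share on 6 and the lower on 4. Chromosome 10, the other one with many broad domains, had only 18.1% of its broad and 22.2% of its other domains in the outer 10%. There the ninth section stood out, with 57 broad domains (34.3% of the broad and 24.3% of the other domains of this chromosome). On chromosome 1 broad domains lay toward the lower positions instead, where the first 2 sections held 66 of 98 broad (67.3%) and 979 of 2137 other domains (45.8%). On chromosome 3 the last section was poor in them, with 4 of 90 broad (4.44%) and 334 of 1553 other domains (21.5%). The similar outer shares without chromosome 2 therefore pool chromosomes with different placement, and these sections were picked after their values were seen.

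**Figure D4:**
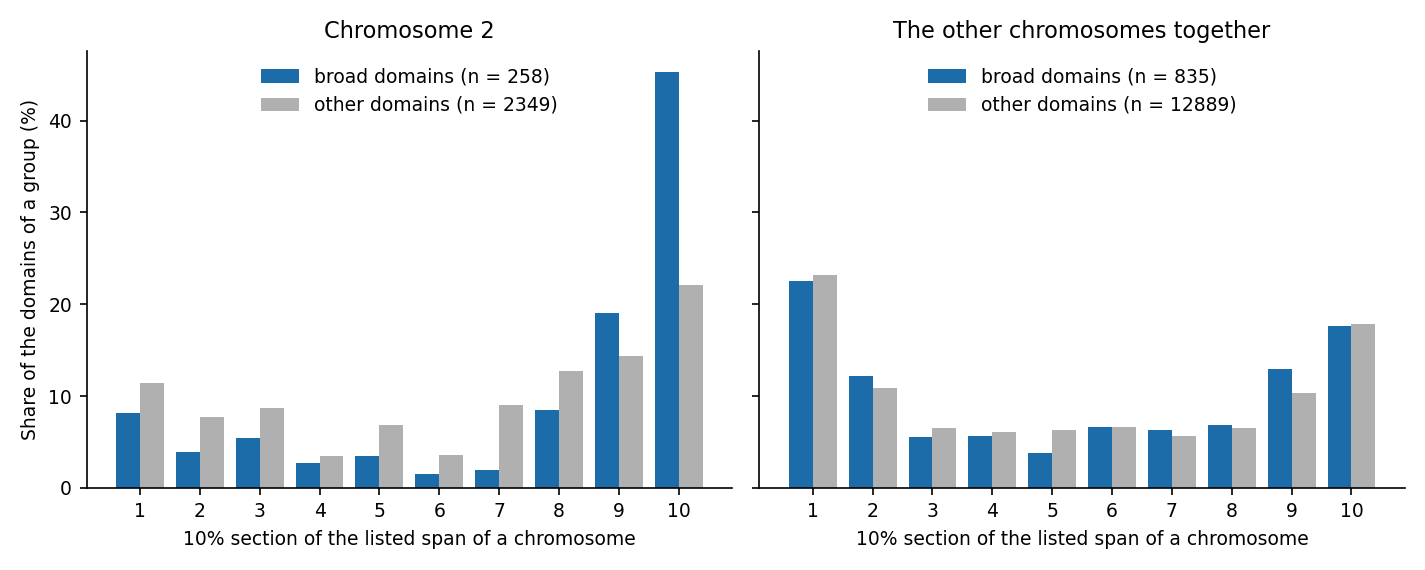
Share of broad (blue) and other (gray) domains in each of 10 equal sections of the listed span, from the first to the last listed position, on chromosome 2 (left) and on the other chromosomes together (right). The last section of chromosome 2 holds 45.3% of its broad and 22.1% of its other domains, while on the other chromosomes the last section holds 17.6% of broad and 17.8% of other domains.

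Broad domains lay in surroundings that were rich in H3K4me3 domains. Within 500 kb of their midpoint, the median number of further listed domains was 41 for broad domains (quartiles 20 and 63) and 32 for other domains (quartiles 16 and 55). Without chromosome 2 the medians were 38 and 31. The median was higher for broad domains on 6 chromosomes, equal on chromosome 7 and lower on chromosomes 3, 6 and 9, so that the direction was not shared by all. Longer broad domains had slightly more neighbors, with a median of 36 at 5000 to 6000 bp, 48 at 6200 to 8000 bp, 53 at 8200 to 10000 bp and 58.5 over 10000 bp (rho between size and neighbors 0.17, n = 1093, with members that share neighborhoods). Shorter domains at the read ratio already had medians of 35 at 3200 to 4000 bp and 36 at 4200 to 4800 bp. The 93 equally long domains below the ratio had 39. The medians thus changed little across the size minimum, where they were not particular to broad domains, and rose above 6000 bp. Chromosome 2 held 21.5% of broad domains at 5000 to 6000 bp and 45.7% of those over 10000 bp. Broad domains in its last section had a median of 80, and the part of chromosome 2 in this rise was not tested. In bins of 1 Mb, the 63 bins with at least 5 broad domains held 501 broad domains (45.8%) and 22.2% of other domains. Of these bins, 16 were on chromosome 2, 13 on chromosome 10 and 12 on chromosome 4. Since the bins were picked by their broad domains, these shares describe the bins and do not compare them.

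The nearest listed domain was closer to broad domains. Measured edge to edge, its median distance was 4800 bp from broad domains (quartiles 1800 and 13200 bp) and 6600 bp from other domains (quartiles 2800 and 18000 bp). Distances within 2000 bp were found for 305 broad domains (27.9%) and 19.1% of other domains, while the minimum distance of 800 bp was found for 61 (5.58%) and 4.53%. The median distance was shorter for broad domains on 9 of 10 chromosomes. Chromosome 8 was the exception, with 12300 bp for its 50 broad and 8400 bp for its other domains. Without chromosome 2 the medians were 5200 and 7000 bp. Among domains at the read ratio the median was 5800 bp at 3200 to 4000 bp and 5700 bp at 4200 to 4800 bp. It was 5200 bp at 5000 to 6000 bp, so that it changed little across the size minimum. In the longer classes it was shorter, with 4600 bp at 6200 to 8000 bp, 3500 bp at 8200 to 10000 bp and 3600 bp over 10000 bp. The 93 equally long domains below the ratio had a median of 2600 bp. Short distances were thus not particular to broad domains. When distances were taken between midpoints, which adds the size of the domains themselves, the direction turned, with 9700 bp for broad and 8900 bp for other domains. On the side with the wider gap the distance was again shorter edge to edge, with a median of 22500 bp for broad and 28600 bp for other domains.

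**Figure D5:**
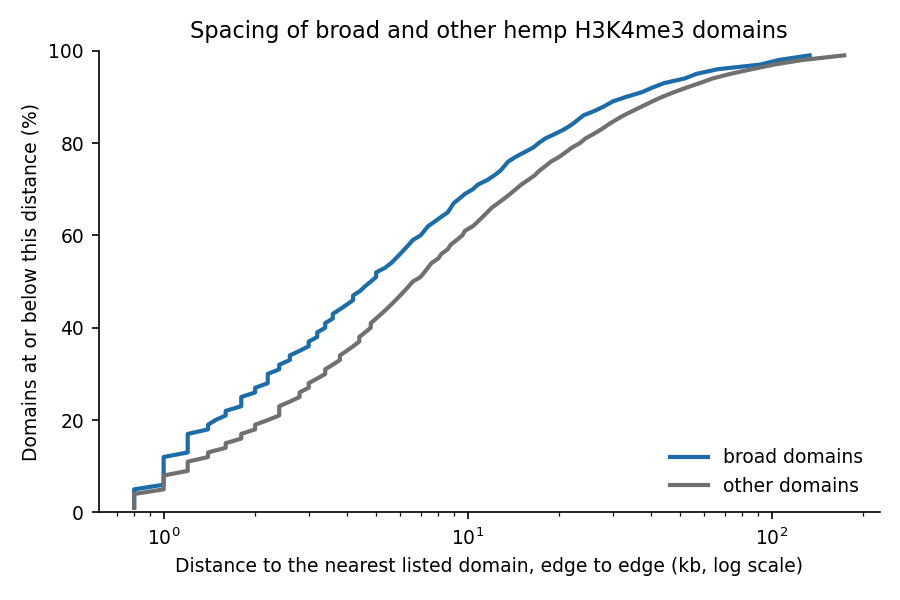
Cumulative percentage of broad (blue) and other (gray) domains by edge-to-edge distance to the nearest listed domain (kb, log scale). The curve of broad domains lies to the left, with medians of 4800 bp for broad and 6600 bp for other domains, and both start at the smallest distance of 800 bp.

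Domains next to broad ones were themselves somewhat longer. The immediate neighbors of broad domains had a median size of 2400 bp, and those of other domains 2000 bp. Neighbors of at most 1000 bp made up 13.2% beside broad and 20.1% beside other domains. Neighbors that were both of at most 1000 bp and within 2000 bp made up 1.19% beside broad (26 of 2181) and 1.59% beside other domains (484 of 30461), while neighbors of any size within 2000 bp made up 15.5% and 10.2%. H3K4me3 density in the neighbors had a median of 184 reads per kb beside broad and 169 beside other domains, which is above that of the broad domains themselves. Isolated broad domains were rare but present. No listed domain was within 100 kb of 27 broad domains (2.47%), compared to 3.16% of other domains. The most isolated was chr1:59976800-59981999, with 395600 bp to its nearest neighbor, 213 H3K4me3 and 9.62 IgG reads per kb and a ratio of 22.2 (95% interval 16.7 to 30.1). Next came chr8:19081000-19086599, at 303800 bp and with 229 H3K4me3 reads per kb, and chr3:57586400-57592799, at 198800 bp and with 227. All 3 exceeded the upper quartile of H3K4me3 reads per kb of broad domains, although across all broad domains rho between distance and density was only 0.10 (n = 1093).

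Most broad domains were single. For 111 of 1093 (10.2%, 95% interval 8.43 to 12.1) the next listed domain on the chromosome was also broad, where the share of broad domains among all listed domains was 6.69%, or 7.26% when chromosomes were weighted by their broad domains. Chromosome 2 carried much of this, with 43 of 258 (16.7%, interval 12.3 to 21.8) beside a share of 9.90%. Without it, 68 of 835 were followed by a broad domain (8.14%, interval 6.38 to 10.2), beside 6.08%, which lies below the interval, or 6.45% when weighted, which lies within it. The share of 9.90% is that of chromosome 2 as a whole. Its last section, with 117 of the 258, had 18.4%, and adjacency was not set against the shares within sections. In all, 886 broad domains stood alone, 81 runs had 2 members and 15 runs had 3, and no run was longer. The 111 gaps within runs had a median of 6200 bp, and 28 of them (25.2%) were at most 2000 bp. All other gaps between adjacent domains had a median of 14200 bp, and 10.5% of these 16210 gaps were at most 2000 bp. Gaps between adjacent broad domains were thus more often narrow than the other gaps, a difference that was not tested. Most of those other gaps touch no broad domain. Of all neighbors of broad domains, 15.5% lay within 2000 bp, and 43 of the 111 gaps were on chromosome 2.

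Runs of 3 occurred on 5 chromosomes, and 8 of 15 were on chromosome 2. As they tie for length, the most and the least compact and the most fully covered were chosen after their values were seen. In the most compact run, at chr9:96800-123399 near the first listed position of that chromosome, domains of 5200, 7400 and 5200 bp were separated by 5600 and 3200 bp. Their H3K4me3 densities were 119, 52.8 and 233 reads per kb, whereas IgG lay at 18.1, 13.0 and 15.2 reads per kb. Adjacent broad domains could thus differ several-fold in H3K4me3 at similar IgG. The run at chr2:89877400-89904399 was built around the sixth longest domain (14400 bp) with gaps of 1200 and 1000 bp, and the domains covered 91.9% of its 27000 bp. The least compact run, chr5:51714400-51815999, extended over 101600 bp with gaps of 51200 and 31000 bp, and its domains covered 19.1%. The broad domain closest to a broad domain was at a median of 85200 bp, and the broad domain closest to an other domain at 162500 bp. Without chromosome 2 these medians were 113000 and 180800 bp.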

How the data were processed

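PHILO ChIP-seq reads of 3 H3K4me3 and 3 IgG libraries from hemp were aligned by the authors with Bowtie2 (version 2.4.1) to cs10, merged by kind, and called with epic2 (version 0.0.52; listed as SICER in the submitters' processing notes). The window, gap, duplicate and mapping quality settings are not given in the sources used here, and the labels and the methods differ on how chromatin was fragmented. The deposited counts are whole reads per domain without normalization. FDR values are those of the authors, from p-values that compare the pooled libraries. The log2 fold change in the deposited table equals the log2 read ratio less 0.99, and the deposited score is this value times 100. A read ratio of 4 and a log2 fold change of 1 chose the same domains. Score and fold change were used only to check this and for alternatives. Sizes of tomato H3K4me3 domains, deposited alike, serve a closing comparison of sizes only, and a tomato H3K9ac table was not used here. No other per-sample column was used.

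The size of a domain counts its first and its last base, and reads per kb were taken over it. Distances were edge to edge. Listed spans ran between the first and the last listed position of a chromosome. Shares have exact binomial intervals and ratios exact intervals of the pair of counts, at 95%. They cover counting error only, since reads carry no molecular identifiers. No group was tested, since replicates were pooled and domains are not replicates. The total over listed domains was 7169433 H3K4me3 and 656405 IgG reads, and low IgG counts limit the ratios of short domains most. Named domains are the 10 longest, the 5 at either end of reads per kb and of read ratio (at least 10 IgG reads), the 3 most isolated, the longest runs, and those beside the limits, of which the text gives the ones it needs. The domains with the most IgG below the ratio were chosen after their values were seen. The members and the lists were chosen with earlier results of these data known. Functions passed 7 of 7 checks on 6000 simulated domains. Tables were handled with pandas 2.3.3 and NumPy 2.4.6 in Python 3.11.15, intervals were taken from SciPy 1.17.1, and plots from matplotlib 3.10.9.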

Additional observations from a re-analysis of the deposited data

How the results depend on the processing

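No paired analysis was possible because the deposited counts are pooled over replicates and carry no replicate number, and for the same reason no replicate could be left out. The number of broad domains was 1093 also with the authors' log2 fold change from 1, which is the same cut as the read ratio. It was the same without domains of at most 3 IgG reads and at an FDR of at most 0.001. Broad domains held at least 38 IgG reads and had an FDR of at most 2.5e-25, so that none of these could change the number. When domains up to 1000 bp apart were joined, the number was 1413, within 1.5 times. It was 651 with that fold change from 2, 2160 from 4000 bp and 573 from 6000 bp, where broad domains took up 30.01% and 11.03% of the covered length and 27.2% and 9.69% of H3K4me3 reads, and were followed by another in 16.8% and 7.16%. Followed within 10000 bp were 6.22%, and without chromosome 2, an alternative chosen after seeing the data, 8.14%.

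H3K4me3 reads per kb were lower in broad domains under all 5 alternatives. The broad median was 157 from 4000 bp. That of other domains was 178 without those of at most 3 IgG reads and 185.5 at the read ratio. Reads over pooled length gave 161 in broad and 188 in other domains, and 16.6 IgG reads per kb in other domains, which left IgG higher in broad domains. The outer 5% held 22.4% of broad and 22.8% of other domains, against the direction at 10%, and the outer 20% held 67.9% and 61.2%. Without chromosome 2 the outer 10% held 40.1% and 41.0%. Further domains numbered 9 for broad and 7 for other domains within 100 kb, 140 and 112 within 2000 kb, and 38 and 31 without chromosome 2. The nearest domain was at 9700 and 8900 bp between midpoints, where the size of the domains is added. For other domains it was at 7500 bp with only domains at the read ratio as neighbors, and at 7000 bp without chromosome 2. The cause of the other shifts was not tested.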

Other observations

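Long domains were more frequent in the hemp table than in the tomato table. At least 5000 bp was reached by 7.26% of 16331 hemp domains (95% exact binomial interval 6.87 to 7.67) and by 2.65% of 18758 tomato domains (2.43 to 2.90), without regard to the read ratio. Median sizes were 2000 bp in hemp and 1800 bp in tomato, and the longest domain measured 19600 bp in hemp and 39600 bp in tomato. The tables differ in genome assembly, and their depths and calling settings were not compared. The part of these in this difference was not tested. When hemp domains up to 1000 bp apart were joined, the largest measured 25200 bp, and 9.04% of the joined domains met both criteria.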
